A study of Mus musculus with 3 samples.

Results

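The regions described here are the gene-dense stretches of the mouse autosomes, read out as RNA in the dentate gyrus. The 19 autosomes were cut into fixed bins of 2 Mb by the start of each locus in the deposited table, and a bin was called gene-dense when it held 40 or more rows, 1 row being 1 entry of the table with a gene symbol, a locus and its values. Before counting, the rule left out rows of 18 symbol prefixes (among them olfactory and vomeronasal receptors, zinc finger genes, histones, keratins, clustered protocadherins, ribosomal proteins and subunits of the respiratory chain) and a stretch of chromosome 17 that holds the major histocompatibility complex. Of 23120 autosomal rows, 3786 were left out in this way and 19334 remained. Of 1180 bins with at least 1 remaining row, 98 were gene-dense (8.31%), and they held 5313 of the remaining rows (27.5%). The rule used positions and names only, so the RNA values played no part in the choice of bins.

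RNA was sequenced from microdissected dentate gyrus, the hippocampal field whose main cell is the granule neuron, of adult C57BL/6 mice aged 8 weeks. The 3 libraries form 1 group, labelled E24, and each came from an individual animal. The labels do not say what E24 stands for, so nothing is said here of a treatment or a time, and no second group was compared. The deposited values bear the name WT ECT, which the labels do not explain either, so the animals are not taken as untreated. The study as a whole addressed how neuronal activation alters open chromatin and RNA in this tissue.

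Mammalian genes are spread unevenly along chromosomes. Gene-dense stretches are typically rich in G and C, replicate early, hold short genes and many promoters with a high density of CpG dinucleotides, and such promoters are typical of genes that most cells use. Gene-dense stretches also include tandem arrays, families of neighbouring copies that arose by duplication, and many of these families act in immunity, reproduction, skin or digestion rather than in neurons.

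Values are RPKM, reads per kilobase of transcript and per unit of mapped reads, which allow levels to be set side by side per length. The total over the table was 384523 RPKM in replicate 1, 369261 RPKM in replicate 2 and 350942 RPKM in replicate 3. The read depth behind them is unknown. Values were displaced by a few rows along the table between libraries. Among pairs of libraries, the share of matching values found at the same row rather than up to 10 rows away was 26.2% to 43.8% in gene-dense bins and 37.8% to 49.2% elsewhere. A value is therefore not read as the level of the gene on its row, and bins are described by means over their rows. In the order of the table, 86.4% of the rows next to a member row lay in the same bin, 79.8% of those 5 rows away and 74.0% of those 10 rows away. For the same reason the labelled tissue could not be checked by single markers: within 5 rows of 90.7% of all rows of the table, the highest value was at 1 RPKM or more in every library. On the row itself, 32.4% of all rows were at 1 RPKM or more in every library, and so were 6 of 14 granule neuron, 3 of 10 astrocyte, 2 of 10 oligodendrocyte, 8 of 10 microglia, 4 of 8 interneuron and 2 of 9 endothelial and mural rows. The rows of Apoe, Csf1r and Flt1, from the astrocyte, microglia and endothelial lists, were listed at 0 in every library. Summed over the list, rows of granule neuron markers held 399 to 775 RPKM, of astrocyte markers 57.4 to 243, of oligodendrocyte markers 59.8 to 119, of microglia markers 153 to 191, of interneuron markers 102 to 377 and of endothelial and mural markers 51.9 to 61.8. The part that other cell types play in a bin mean was not tested.

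The densest bins were chromosome 19 at 4 to 6 Mb with 102 rows, chromosome 17 at 24 to 26 Mb with 99 rows and chromosome 7 at 52 to 54 Mb with 95 rows, and the median gene-dense bin held 51. All bin positions are in mm9, the build of the table. Chromosome 11 held the most gene-dense bins, 14, followed by chromosomes 2 and 7 with 11 each. Gene-dense bins often lay side by side: 54 of the 98 formed 22 runs of 2 or more adjacent bins, the longest being 5 bins on chromosome 11 from 94 to 104 Mb.

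Promoters of 9 genes are printed as examples from bins at both ends of the range of RNA levels described further on, and both ends hold CpG-rich and CpG-poor ones. They are RefSeq promoter windows, 250 bases before to 50 bases after a transcription start, on build GRCm38.p6, printed 5′ to 3′ with every CpG in capitals. Positions on this build differ from those of the bins. The first 5 belong to genes in high bins. Rab3a encodes a small GTPase of synaptic vesicles and Jund a subunit of the transcription factor AP-1, and both lie in the bin on chromosome 8 at 72 to 74 Mb. Eef2 encodes the elongation factor that moves the ribosome along the mRNA, Sf3a2 a subunit of the splicing factor complex SF3a, and Plekhj1 a protein with a pleckstrin homology domain, and all 3 lie on chromosome 10 at 80 to 82 Mb.
Rab3a (chr8:70754453-70754752, plus strand): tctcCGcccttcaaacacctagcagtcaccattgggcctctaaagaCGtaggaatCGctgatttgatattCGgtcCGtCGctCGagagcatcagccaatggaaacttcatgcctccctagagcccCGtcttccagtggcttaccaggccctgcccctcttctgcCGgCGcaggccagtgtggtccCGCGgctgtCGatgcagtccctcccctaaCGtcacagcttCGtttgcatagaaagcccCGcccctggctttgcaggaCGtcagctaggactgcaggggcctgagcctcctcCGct
Jund (chr8:70697489-70697788, plus strand): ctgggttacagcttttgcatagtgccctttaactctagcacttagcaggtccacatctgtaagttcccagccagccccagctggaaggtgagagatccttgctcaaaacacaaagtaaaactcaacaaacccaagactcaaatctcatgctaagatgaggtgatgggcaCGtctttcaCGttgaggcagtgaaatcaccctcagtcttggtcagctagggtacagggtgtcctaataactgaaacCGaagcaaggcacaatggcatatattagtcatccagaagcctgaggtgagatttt
Eef2 (chr10:81176381-81176680, plus strand): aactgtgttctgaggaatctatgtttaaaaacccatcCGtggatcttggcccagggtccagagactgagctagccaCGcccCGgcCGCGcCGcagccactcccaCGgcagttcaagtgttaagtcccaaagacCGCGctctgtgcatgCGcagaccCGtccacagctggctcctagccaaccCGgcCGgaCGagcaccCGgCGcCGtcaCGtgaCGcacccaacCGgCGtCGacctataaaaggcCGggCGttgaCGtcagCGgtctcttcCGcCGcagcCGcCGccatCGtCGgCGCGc
Sf3a2 (chr10:80798485-80798784, plus strand): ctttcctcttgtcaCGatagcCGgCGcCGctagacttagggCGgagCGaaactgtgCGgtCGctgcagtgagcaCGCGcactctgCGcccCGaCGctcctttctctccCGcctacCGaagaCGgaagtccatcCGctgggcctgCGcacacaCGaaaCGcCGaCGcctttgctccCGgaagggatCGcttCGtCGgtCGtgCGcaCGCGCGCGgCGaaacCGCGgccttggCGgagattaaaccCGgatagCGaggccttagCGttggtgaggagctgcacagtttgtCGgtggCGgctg
Plekhj1 (chr10:80798577-80798876, minus strand): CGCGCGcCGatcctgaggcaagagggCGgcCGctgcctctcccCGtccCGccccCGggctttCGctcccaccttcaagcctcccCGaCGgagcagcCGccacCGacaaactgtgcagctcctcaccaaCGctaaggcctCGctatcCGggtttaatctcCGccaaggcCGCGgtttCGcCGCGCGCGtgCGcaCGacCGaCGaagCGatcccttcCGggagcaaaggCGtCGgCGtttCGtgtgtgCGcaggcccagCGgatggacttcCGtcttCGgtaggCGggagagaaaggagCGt
Sf3a2 and Plekhj1 start head to head: their windows lie on opposite strands and share 208 bases. Their windows held 41 CpGs each, that of Eef2 34, that of Rab3a 18 and that of Jund 3. The ratio of CpGs observed to those expected from the C and G content was 1.29 for Sf3a2, 1.19 for Plekhj1, 1.11 for Eef2, 0.69 for Rab3a and 0.18 for Jund. Of the 10 functional list genes of the 8 highest bins that have a window, 3 had a ratio below 0.6, namely Jund, Homer3 with 0.56 and Cplx2 with 0.43.

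The other 4 belong to genes in low bins. Nr4a1, an immediate early gene that encodes an orphan nuclear receptor, and Cela1, which encodes a pancreatic elastase, share the bin on chromosome 15 at 100 to 102 Mb. Ifna4, a type I interferon, lies on chromosome 4 at 88 to 90 Mb, and Klk1, a tissue kallikrein (a secreted serine protease), on chromosome 7 at 50 to 52 Mb. Plekhj1 as the partner of Sf3a2, and Ifna4 and Klk1 as members of arrays, were picked after values were seen.
Nr4a1 (chr15:101266596-101266895, plus strand): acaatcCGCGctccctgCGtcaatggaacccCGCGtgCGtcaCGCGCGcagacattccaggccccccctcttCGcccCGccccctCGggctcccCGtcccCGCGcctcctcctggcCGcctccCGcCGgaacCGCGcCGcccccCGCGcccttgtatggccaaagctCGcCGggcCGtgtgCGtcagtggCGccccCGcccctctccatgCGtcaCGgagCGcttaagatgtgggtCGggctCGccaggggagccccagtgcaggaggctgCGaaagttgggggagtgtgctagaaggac
Cela1 (chr15:100687871-100688170, minus strand): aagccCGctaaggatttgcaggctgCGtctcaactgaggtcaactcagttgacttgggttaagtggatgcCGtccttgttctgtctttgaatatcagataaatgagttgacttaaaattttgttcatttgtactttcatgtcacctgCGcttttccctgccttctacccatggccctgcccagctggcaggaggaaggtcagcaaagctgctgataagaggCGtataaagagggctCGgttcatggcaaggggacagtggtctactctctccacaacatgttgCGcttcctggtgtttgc
Ifna4 (chr4:88841566-88841865, plus strand): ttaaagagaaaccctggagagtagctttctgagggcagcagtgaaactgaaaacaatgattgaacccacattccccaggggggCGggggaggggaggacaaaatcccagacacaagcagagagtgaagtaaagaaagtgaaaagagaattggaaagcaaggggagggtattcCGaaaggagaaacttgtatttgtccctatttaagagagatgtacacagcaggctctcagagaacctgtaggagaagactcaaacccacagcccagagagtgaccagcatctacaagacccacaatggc
Klk1 (chr7:44225110-44225409, plus strand): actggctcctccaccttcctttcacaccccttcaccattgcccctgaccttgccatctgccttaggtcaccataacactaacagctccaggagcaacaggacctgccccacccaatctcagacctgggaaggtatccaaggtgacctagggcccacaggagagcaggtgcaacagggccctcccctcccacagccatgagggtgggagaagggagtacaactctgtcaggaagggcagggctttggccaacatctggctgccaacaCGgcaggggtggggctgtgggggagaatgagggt
Nr4a1 had 35 CpGs and a ratio of 0.91, whereas Cela1 had 7 and 0.39, Ifna4 2 and 0.12, and Klk1 1 and 0.04. By these windows, the bins of Rab3a and of Nr4a1 each held both kinds of promoter. Only the first listed window of a gene was taken, and any other start of the same gene was not read.

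Rows of gene-dense bins carried more RNA than rows of the other autosomal bins in each library. The mean of log2(RPKM + 1) over rows was 2.38, 2.32 and 2.30 in gene-dense bins of replicates 1, 2 and 3, against 1.99, 1.99 and 1.98 in the other bins. The library means did not overlap, and the lowest gene-dense mean lay above the highest of the others. The difference averaged 0.35 ± 0.04 on this log2 scale (SD, n = 3), which understates the change of low rows. Each library showed the same sign, and the two-sided exact sign-flip permutation p was 0.25, the smallest that 3 libraries allow.

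The share of rows with RNA differed in the same direction. Values of at least 1 RPKM were found in 58.5% ± 0.57 of gene-dense rows and 54.0% ± 0.30 of the others, a difference of 4.56 ± 0.28 percentage points (SD, n = 3; exact sign-flip permutation p = 0.25). Listed at 0 were 20.3% ± 0.76 of gene-dense rows and 23.4% ± 1.30 of the others. The gap was relatively wider among abundant rows. At least 10 RPKM was reached by 33.1% ± 0.65 of gene-dense rows and 26.03% ± 0.38 of the others. At least 100 RPKM was reached by 3.44% ± 0.23 of gene-dense rows and 2.07% ± 0.11 of the others, a ratio of 1.67 ± 0.06. Among rows at 1 RPKM or more, the median was 12.4 ± 0.25 RPKM in gene-dense bins and 9.49 ± 0.27 RPKM in the others. Gene-dense bins thus held both more rows with RNA and higher values among them.

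**Figure D1:**
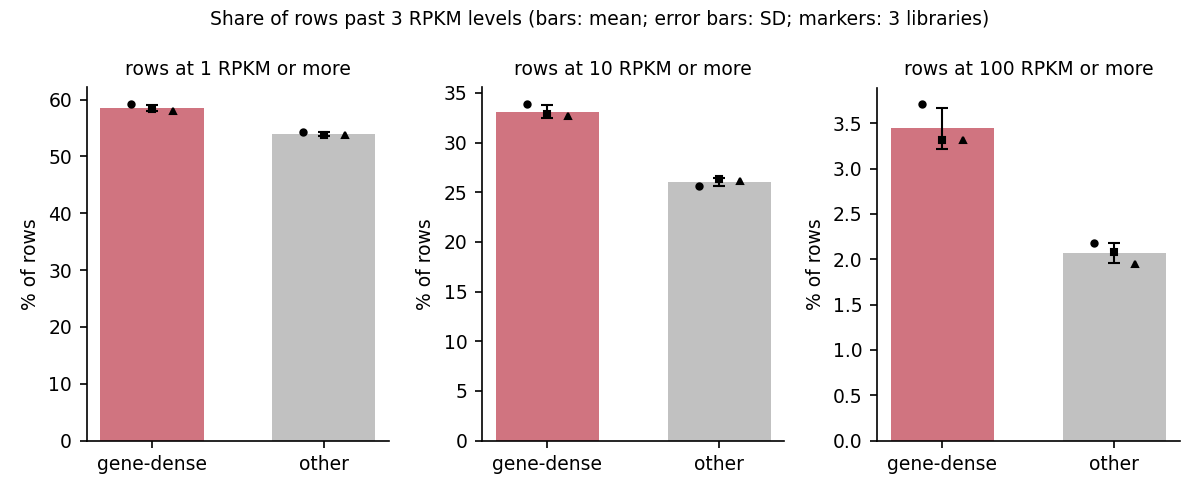
Share of rows at or above 1, 10 and 100 RPKM in gene-dense bins (5313 rows) and in the other autosomal bins (14021 rows), in percent of rows, with linear axes from 0. Bars are means over 3 libraries, error bars SDs and markers the libraries; the gene-dense bar is higher in each panel.

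Of all RPKM summed over the remaining autosomal rows, 33.2% ± 1.54 lay in gene-dense bins (34.8%, 31.7% and 33.1% in replicates 1, 2 and 3), which held 27.5% of the rows. With the highest row of each group left out the share was 34.6% ± 1.37. The mean per row was 18.98 ± 1.41 RPKM in gene-dense bins and 14.4 ± 0.47 RPKM in the others.

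Level did not climb steadily with the number of rows. Bins of 60 to 102 rows had a mean log2(RPKM + 1) of 2.38 ± 0.05, bins of 50 to 59 rows 2.12 ± 0.06 and bins of 40 to 49 rows 2.41 ± 0.03. Below the threshold, bins of 30 to 39 rows stood at 2.16 ± 0.03, bins of 20 to 29 rows at 1.93 ± 0.02, bins of 10 to 19 rows at 1.97 ± 0.01 and bins of 1 to 9 rows at 1.96 ± 0.02 (SD, n = 3). The lower level of bins of 50 to 59 rows went with a lower share of rows at 1 RPKM or more, 53.1% ± 1.18, against 60.5% ± 0.54 in bins of 40 to 49 rows. Across the 708 bins with 10 or more rows, which share the same 3 libraries, level and row number were weakly related (Pearson r = 0.18, Spearman rho = 0.16). Across the 98 gene-dense bins r was 0.01 and rho −0.05. At the threshold itself, the 12 bins of exactly 40 rows ranged from −0.50 to 1.02 around a median of 0.50, and the 4 bins of 39 rows from −1.08 to 0.60 around 0.15, as offsets from the mean of all remaining autosomal rows.

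**Figure D2:**
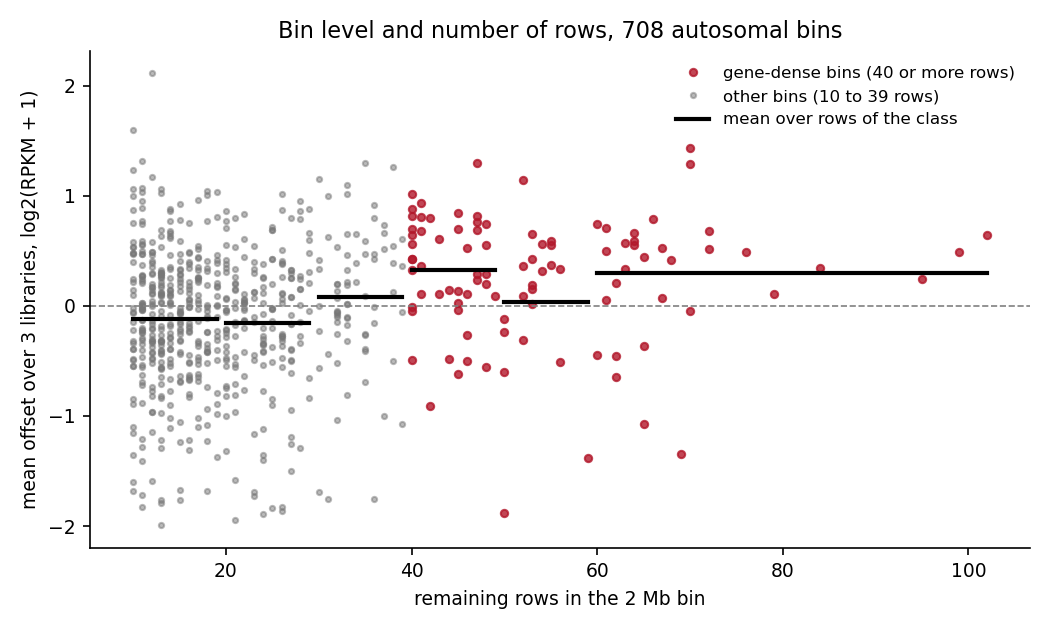
Mean offset of each of 708 autosomal bins (bin mean of log2(RPKM + 1) minus the mean of all remaining autosomal rows, averaged over 3 libraries) against its number of remaining rows, both axes linear. Red points are gene-dense bins, grey points bins of 10 to 39 rows, and black lines the mean over rows of each class; gene-dense bins span −1.88 to 1.43 with no slope among them.

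The offset of each bin was tested for repeating between libraries with limma, fitted over all 708 bins with 10 or more rows. Of 98 gene-dense bins, 55 were higher than the mean of all rows (56.1%), where 25.6% of all fitted bins were higher, and 17 were lower (17.3%), where 28.4% of all fitted bins were lower, at Benjamini-Hochberg adjusted p under 0.05. Among the 610 other fitted bins, 20.7% were higher and 30.2% lower. The share of gene-dense bins called higher was thus above the background and the share called lower below it. The test compares a bin with the spread between libraries, not with the spread among its genes. Animals and displaced values both enter that spread.

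Gene-dense bins differed from each other far more than libraries did. The SD among the 98 mean offsets was 0.58, whereas the median SD of a bin between libraries was 0.10, a ratio of 5.56. Their offsets correlated between libraries at r of 0.95, 0.94 and 0.97 across bins, against 0.79, 0.83 and 0.87 for the other fitted bins, whose means rest on fewer rows. The middle of the gene-dense offsets, from the lower to the upper quartile, ran from 0.02 to 0.64 around a median of 0.35, and 74 of the 98 means were above 0.

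**Figure D3:**
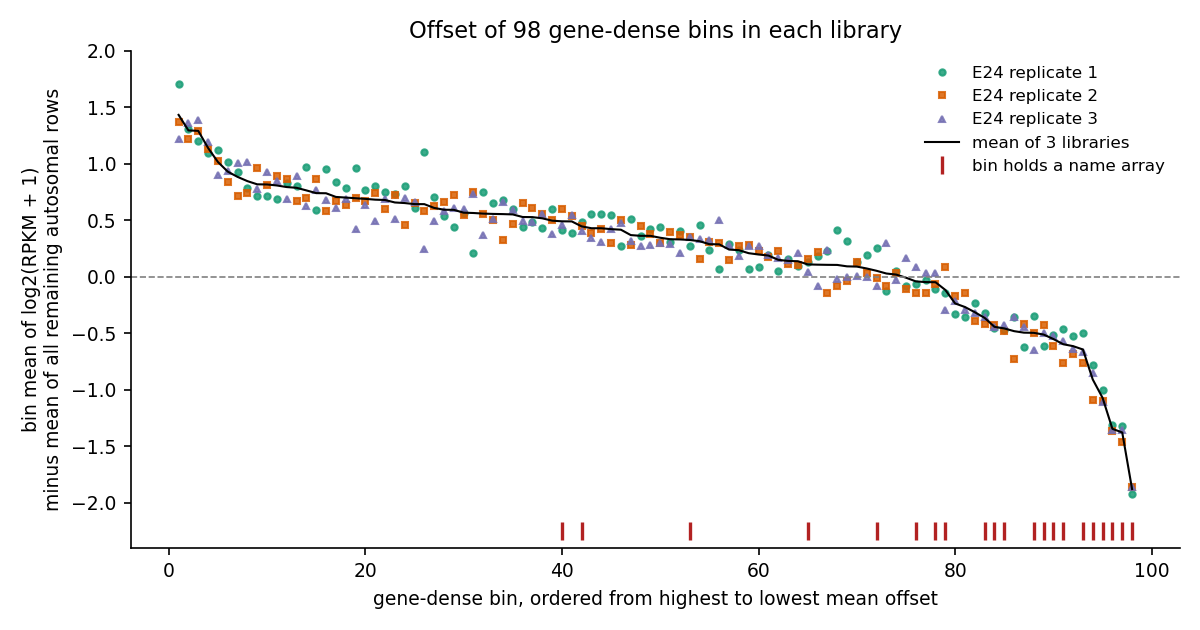
Offset of each of the 98 gene-dense bins in each of 3 libraries (bin mean of log2(RPKM + 1) minus the mean of all remaining autosomal rows, linear axis), ordered by mean. Markers are libraries, the line is their mean, and red ticks mark the 21 bins that hold a name array; most of these ticks stand at the low end.

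The 8 highest bins had a joint offset of 1.14 ± 0.05, and 74.3% ± 0.43 of their rows reached 1 RPKM. Chromosome 8 at 72 to 74 Mb stood highest, with offsets of 1.70, 1.37 and 1.22 in replicates 1, 2 and 3 and 78.6% ± 2.86 of its 70 rows reaching 1 RPKM. It is the locus of Homer3, a scaffold of the postsynaptic density, and of Rab3a and Jund. Its mean lay 1.02 ± 0.15 above that of its neighbouring bins (limma SE, adjusted p = 1.36e-05).

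Chromosome 13 at 54 to 56 Mb had offsets of 1.31, 1.22 and 1.36 over 47 rows. This bin holds Cplx2, a complexin that regulates vesicle fusion, and Drd1a, the D1 dopamine receptor. It exceeded its neighbours by 1.73 ± 0.16 (limma SE, adjusted p = 5.01e-08). Its summed RPKM was 3318, 1600.4 and 1519 in replicates 1, 2 and 3, and 55.5% of the sum in replicate 1 came from 1 row, so the mean of logs is the steadier measure.

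Chromosome 10 at 80 to 82 Mb had offsets of 1.20, 1.29 and 1.38 over 70 rows, with 75.7% ± 2.47 of them reaching 1 RPKM. Besides Eef2 and Sf3a2 it holds Gadd45b, an activity-regulated gene linked to DNA demethylation in dentate neurons. It lay at the end of a run of 4 gene-dense bins from 74 to 82 Mb, whose offsets ranged from −0.48 to 1.29.

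Chromosome 5 at 114 to 116 Mb, the bin of the splicing factor Srsf9, had offsets of 1.09, 1.13 and 1.20. Chromosome 2 at 32 to 34 Mb had 1.12, 1.02 and 0.90. The remaining 3 were chromosome 11 at 4 to 6 Mb with a mean of 0.93, chromosome 15 at 80 to 82 Mb, the bin of the acetyltransferase gene Ep300, with 0.88, and chromosome 16 at 16 to 18 Mb with 0.85. For the bins on chromosomes 11 and 16 the difference from neighbouring bins, 0.13 ± 0.14 and 0.13 ± 0.15, did not pass the test (limma SE, adjusted p = 0.42 for both). With rows under a mean of 1 RPKM left out, the offset of the bin on chromosome 11 was 0.24 with a limma adjusted p of 0.15.

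The 8 lowest bins had a joint offset of −1.07 ± 0.08, with 26.2% ± 1.57 of their rows reaching 1 RPKM. Chromosome 4 at 88 to 90 Mb was lowest, with offsets of −1.92, −1.86 and −1.86, and 5.33% ± 1.15 of its 50 rows reached 1 RPKM. It holds the type I interferon array, of which 17 rows bear an Ifn name, and its summed RPKM was 34.7, 41.4 and 40.4.

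Chromosome 6 at 128 to 130 Mb had offsets of −1.32, −1.46 and −1.35. It is the natural killer gene complex, with 24 rows of Klr names and 12 of Clec names, lectin-like receptors of natural killer and myeloid cells. Chromosome 8 at 22 to 24 Mb had −1.32, −1.37 and −1.36 and holds 27 rows of defensins, antimicrobial peptides of gut and other epithelia. Chromosome 7 at 50 to 52 Mb had −1.003, −1.10 and −1.11 and holds 27 kallikrein rows.

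The kallikrein bin also holds Shank1, a postsynaptic scaffold. It adjoins the third densest bin, chromosome 7 at 52 to 54 Mb, with offsets of 0.29, 0.15 and 0.28, the locus of Kcnc1, Grin2d (an NMDA receptor subunit) and Snrnp70 (a protein of the U1 spliceosome particle). The means of these adjacent gene-dense bins were −1.07 and 0.24, and the ranges of their 3 libraries did not overlap. The bin at 52 to 54 Mb did not pass the test against all rows (limma adjusted p = 0.058). It was called higher with a pseudocount of 0.1 (0.45, limma adjusted p = 0.032), for medians (0.39, adjusted p = 0.025) and with the excluded families kept in (0.42, adjusted p = 0.0087), and its offset was −0.076 with 5 rows left out at each edge (adjusted p = 0.34).

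Chromosome 14 at 26 to 28 Mb had offsets of −0.78, −1.10 and −0.86. It holds homeobox arrays, 6 rows with Cphx names and 5 with Duxbl names, and these 11 rows were listed at 0 in each library. Rows of near-identical copies can lose reads in counting, and several of these rows carry the same symbol. With 1 row kept per symbol the offset of this bin was −0.34, and with rows at 0 in every library left out it was 0.11 (limma adjusted p = 0.61).

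Chromosome 4 at 42 to 44 Mb, with 9 chemokine rows, had offsets of −0.50, −0.77 and −0.67. Chromosome 15 at 100 to 102 Mb, with Scn8a (a neuronal sodium channel), Nr4a1 and Cela1, had −0.52, −0.68 and −0.64 with no array. Chromosome 8 at 106 to 108 Mb, with 11 carboxylesterase and 5 Cmtm rows, had −0.46, −0.77 and −0.57. Without rows of name arrays (5 or more rows of 1 bin that share a name stem), this bin was no longer called (−0.19, limma adjusted p = 0.24). The same step gave −0.76 for the bin on chromosome 6 (adjusted p = 0.0048), −0.63 for the kallikrein bin (adjusted p = 0.0055) and −0.55 for the bin on chromosome 14 (adjusted p = 0.016), each still called lower by limma. The lowest bin, with the interferon array, did not rise: its offset was −1.93 without name arrays and −1.88 with them. With rows under a mean of 1 RPKM left out, 2 of the 8 lowest bins, those on chromosome 4 at 88 to 90 Mb and on chromosome 6, had too few rows to be fitted, limma did not call 5 and it still called 1 lower, the bin on chromosome 15.

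A name array was defined as 5 or more rows of 1 bin whose symbols share their first 3 letters, where the stem lies on at most 10 autosomes. This definition was made after values were seen, so the split is a description. The 21 gene-dense bins with an array had an offset of −0.43 ± 0.02, and limma called 3 of them higher and 13 lower. The 77 without one had an offset of 0.45 ± 0.03, with 52 called higher and 4 lower. Of all fitted bins, 25.6% were called higher and 28.4% lower. Array rows themselves numbered 297, with a mean log2(RPKM + 1) of 0.61 ± 0.05 and 14.6% ± 0.70 of them at 1 RPKM or more. The remaining rows of the same bins stood at 1.99 ± 0.03 and 51.0% ± 0.56, and rows of gene-dense bins without arrays at 2.54 ± 0.04 and 63.4% ± 0.57. Array rows were as low in bins that are not gene-dense, where 475 of them stood at 0.61 ± 0.02 and 17.2% ± 0.74. Since many values are displaced along the table, array rows and the rows beside them cannot be told apart. With array rows left out everywhere, gene-dense bins exceeded the others by 0.40.

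The values listed on array rows were not low in each array, though displacement means that they need not be the levels of the genes named there. The rows with names of glutathione S-transferases on chromosome 3 at 106 to 108 Mb, 7 rows, enzymes that detoxify electrophiles, had a mean log2(RPKM + 1) of 3.57, 3.10 and 3.24, with 5 rows at 1 RPKM or more in each library. The 12 rows with names of pregnancy-specific glycoproteins on chromosome 7 at 18 to 20 Mb had 1.65, 1.12 and 1.74. Interferon rows stood at 0.19, 0.18 and 0.18, kallikrein rows at 0.32, 0.27 and 0.34 and defensin rows on chromosome 8 at 0.10, 0.10 and 0.

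Promoter windows were available for 3948 of the 4887 protein-coding symbols of gene-dense bins (80.8%) but for 78.8% of those of other bins, under the 80% that a comparison of the sets needs, so the comparison of promoters between gene-dense and other bins is void. The windows of gene-dense bins are therefore set beside all 16457 protein-coding autosomal windows in the RefSeq table, of which they are a part. This wider set still holds the gene families that the rule left out of the bins. The shares below thus describe unlike sets, and what gene density adds to a difference cannot be told from them. A CpG ratio of 0.6 or more was found in 55.8% of gene-dense windows and 49.7% of all windows, and the median GC content was 58.7% and 56.7%. On either strand, the Sp1-type box GGGCGG was found in 55.6% and 47.3%, the ETS-type motif CCGGAAGT in 7.55% and 5.46%, the CREB-type motif TGACGTCA in 2.74% and 2.42%, the AP-1-type motif TGANTCA in 6.23% and 7.17%, and the TATA box TATAAA in 9.14% and 13.5%. These motifs do not contain each other. Of the printed windows, GGGCGG occurs in those of Rab3a, Sf3a2, Plekhj1, Nr4a1 and Ifna4, TATAAA in those of Eef2 and Cela1, TGACGTCA in that of Eef2, and none of the 5 motifs in those of Jund and Klk1. Head-to-head starts, windows that share 40 or more bases on opposite strands, involved 355 of the 3948 gene-dense windows (8.99%). No such share is given for all windows, so this one cannot be called high or low.

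Among the 62 gene-dense bins with a window for at least 80% of their symbols, the share of CpG-rich windows ranged from 14.0% to 81.1% around a median of 61.0%. Bins with more CpG-rich promoters had higher offsets (Pearson r = 0.71, Spearman rho = 0.64, n = 62 bins that share the same libraries). The relation was weaker within the 49 bins without an array (r = 0.49, rho = 0.42) and within the 13 with one (r = 0.55, rho = 0.41). Of the 8 highest bins 7 had enough windows, with 63.6% to 74.1% CpG-rich, and of the 8 lowest 4 had, with 14.0% to 40.9%. The highest bin, on chromosome 8 at 72 to 74 Mb, had 43 CpG-rich windows of 59, and the kallikrein bin had 8 of 57.

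**Figure D4:**
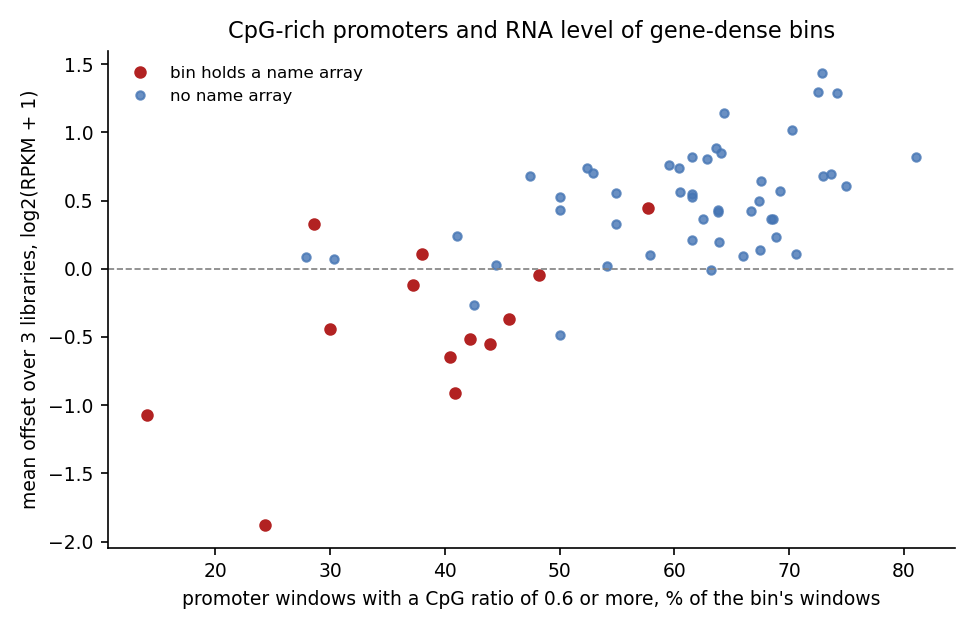
Mean offset of a gene-dense bin over 3 libraries, in log2(RPKM + 1), against the percent of its promoter windows with a CpG ratio of 0.6 or more, for 62 bins with windows for 80% or more of their symbols, both axes linear. Red points hold a name array and blue points do not; red points lie mostly to the lower left.

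The difference was next taken within chromosomes, which hold different shares of gene-dense rows, from 6.54% on chromosome 13 to 49.4% on chromosome 11. Chromosome 18 held no gene-dense bin. On 18 autosomes that hold both kinds of bin, gene-dense rows were higher on 14 (77.8% of the chromosomes tested) and lower on 1 (5.56%) by limma at adjusted p under 0.05. Chromosome 13, with its single gene-dense bin, showed the largest difference, 1.47 ± 0.05 (limma SE). On chromosome 17, gene-dense rows had levels of 2.46, 2.48 and 2.48, against 1.74, 1.77 and 1.73 in its other rows. Chromosome 10 gave 2.59, 2.57 and 2.58 in gene-dense rows, against 1.86, 1.90 and 1.92 in other rows. On both chromosomes the library means of the kinds of row did not overlap, as on each chromosome called in either direction. The single rows were not compared in this way.

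Chromosome 12 was the exception in direction. Its 2 gene-dense bins had levels of 2.003, 2.07 and 1.99, against 2.21, 2.21 and 2.24 in its other rows, a difference of −0.20 ± 0.05 (limma SE, adjusted p = 0.0010). These 2 bins differed from the mean of all autosomal rows in opposite directions: the bin at 88 to 90 Mb had a mean offset of −0.50 and was called lower (limma adjusted p = 0.0086), and the bin at 112 to 114 Mb had 0.36 and was called higher (adjusted p = 0.017). No chromosome was called lower when rows at 0 in every library or under a mean of 1 RPKM were left out, or when the excluded families were kept in. Chromosomes 6, 11 and 14 passed in neither direction, with differences of −0.03, −0.04 and −0.06. Chromosome 11, with the most gene-dense bins, had levels of 2.38, 2.31 and 2.27 in gene-dense rows and 2.30, 2.41 and 2.38 in other rows; these ranges overlap.

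**Figure D5:**
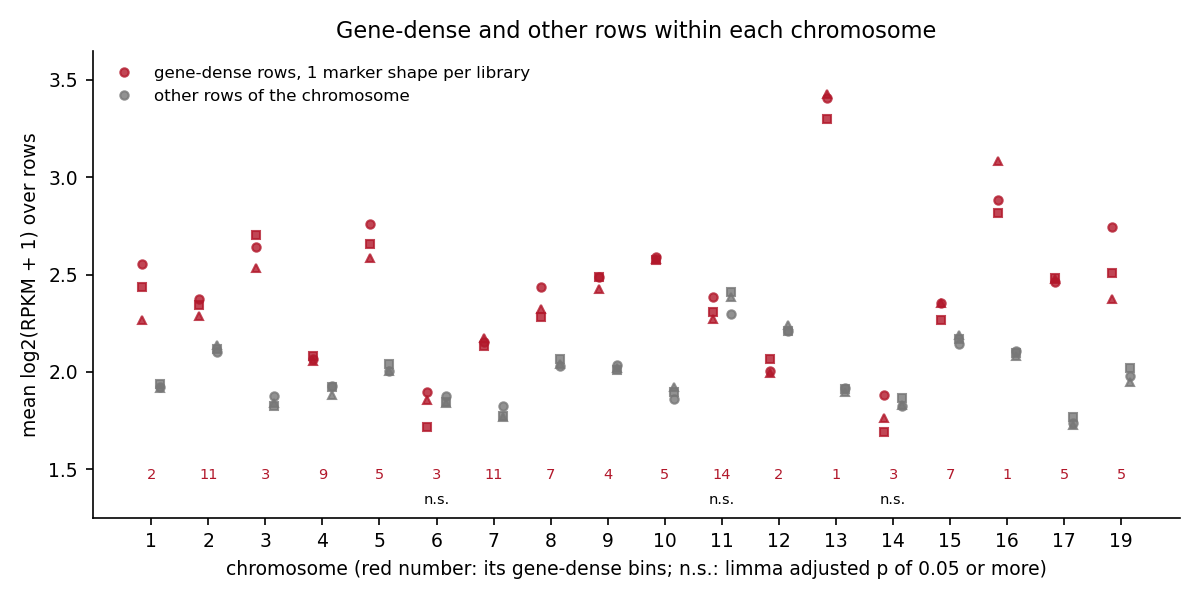
Mean log2(RPKM + 1) of gene-dense rows (red, left) and of the other rows (grey, right) of each chromosome with gene-dense bins, 1 marker per library, on a linear axis that does not start at 0. Red numbers count the gene-dense bins; gene-dense rows stand above the others except on chromosomes 6, 11, 12 and 14.

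Gene-dense bins were also set against their own neighbours, the adjacent bins that are not gene-dense. Of 80 bins with such neighbours, 36 were higher (45%) and 9 lower (11.2%) by limma at adjusted p under 0.05. When each bin of 10 to 39 rows was compared with its neighbours in the same way, a comparison added after values were seen, 18.4% of 534 were higher and 17.4% lower. The bin of chromosome 7 at 52 to 54 Mb, whose offset from all rows was 0.24, lay 1.43 ± 0.15 above its neighbour, whose rows are low (limma SE, adjusted p = 2.70e-07). Leaving out 5 rows at each edge of a bin left 14 bins to compare, of which 11 were higher and 3 lower.

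Loci in gene-dense bins were short. Their median length was 10.4 kb, against 23.2 kb in the other bins, and loci of 100 kb or more made up 2.54% of gene-dense rows and 14.4% of the others. The higher level of gene-dense rows was present in each class of length. Among loci under 10 kb the mean log2(RPKM + 1) was 2.19 ± 0.07 in gene-dense rows and 1.63 ± 0.01 in other rows. Between 10 and 30 kb it was 2.40 ± 0.02 and 2.03 ± 0.02, between 30 and 100 kb 2.61 ± 0.04 and 2.17 ± 0.02, and at 100 kb and over 2.56 ± 0.09 and 2.24 ± 0.05 (SD, n = 3). Since values are displaced between rows, the length on a row need not be that of the gene measured. Rows with predicted or clone-based names made up 11.3% of gene-dense rows and 17.8% of the others. Leaving these aside, rows with gene names stood at 2.44 ± 0.03 in gene-dense bins and 2.15 ± 0.01 elsewhere. By RefSeq biotype, 93.7% of the symbols in gene-dense bins and 87.6% of those elsewhere were protein-coding.

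Lists of genes were placed on the bins by position only, beside the 27.5% of remaining rows that are gene-dense. Of synaptic genes, 14 of 28 lay in gene-dense bins, among them Vamp2 (a vesicle SNARE), Dlg4 (the scaffold PSD-95), Shank1 and Shank3. Of ion channel genes 13 of 26 did, among them Hcn2 (a pacemaker channel) and Cacna1a (a presynaptic calcium channel). Neurotransmitter receptors counted 8 of 24, with Grin1, the obligate NMDA receptor subunit, Gabrd, the delta subunit of extrasynaptic GABA receptors, and Drd1a. Activity-regulated genes counted 10 of 29, with Fosb, Junb, Arc and Npas4 among them.

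General functions varied as well. Chromatin regulators counted 15 of 27, among them Smarca4, the ATPase of the BAF remodelling complex, and Dnmt1, the maintenance DNA methyltransferase. Translation factors counted 15 of 29, cytoskeletal genes 12 of 25, glycolytic enzymes 6 of 14, splicing factors 11 of 31 and proteasome subunits 9 of 31. A list of proteases, cytokines and immune surface genes of other tissues, with Gzmb (a protease of cytotoxic lymphocytes) and Ccl5 (a chemokine), counted 13 of 27. Markers of cell types counted 3 of 14 for granule neurons, 4 of 10 for astrocytes, 3 of 8 for oligodendrocytes, 2 of 9 for microglia, 1 of 8 for interneurons and 1 of 9 for endothelium and mural cells.

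The range of a bin between libraries was over 0.5 on the log2 scale in 3 of the 98 bins. Of the 610 other fitted bins, whose means rest on fewer rows, 203 had such a range. The 3 lay on chromosome 19 at 4 to 6 Mb and on chromosome 2 at 26 to 28 and 130 to 132 Mb. The last had offsets of 0.96, 0.70 and 0.42 in replicates 1, 2 and 3. The bins described next are the 3 with the largest SD between libraries. Chromosome 19 at 4 to 6 Mb, the densest bin, with Npas4 (an activity-induced transcription factor), Sf3b2 (a subunit of SF3b) and Cfl1 (cofilin), had offsets of 1.10, 0.58 and 0.24 in replicates 1, 2 and 3. Its summed RPKM was 3096, 2138 and 1703, and 49, 31 and 25 of its rows were at 10 RPKM or more, whereas the share at 1 RPKM or more was 77.1% ± 2.04. Limma called this bin higher with all 3 libraries (0.64, adjusted p = 0.037), and the call was lost under several alternatives. Its offset was 0.41 without replicate 1 (adjusted p = 0.083), 0.67 without replicate 2 (adjusted p = 0.079), 0.95 for medians (adjusted p = 0.10) and 0.58 without name arrays (adjusted p = 0.051). It was 0.39 without rows at 0 in every library (adjusted p = 0.14) and −0.053 without rows under a mean of 1 RPKM (limma adjusted p = 0.85).

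The 60 rows that precede this bin in the table, of which 56 bear protocadherin names, went the opposite way, with levels of 1.64, 2.19 and 2.77. Joined, the 162 rows of both stretches had levels of 2.62, 2.49 and 2.48, and 52, 50 and 50 rows at 10 RPKM or more. The spread of the joined stretch, 0.08 (SD, n = 3), was below the 0.44 of the bin alone. Whether values of this bin moved across its edge in the table was not tested. With this bin left out, gene-dense rows exceeded the others by 0.34 ± 0.03, and on chromosome 19 they exceeded them by 0.47 ± 0.06.

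Chromosome 2 at 26 to 28 Mb had offsets of 0.21, 0.75 and 0.73, so that replicate 1 was low, and limma no longer called it higher without replicate 2 (0.47, adjusted p = 0.083) or without replicate 3 (0.48, adjusted p = 0.10). Chromosome 11 at 58 to 60 Mb had 0.42, −0.08 and −0.02, with replicate 1 high, and was not called. The 60 rows before the bin on chromosome 2 had levels of 2.37, 2.28 and 2.27. Their summed RPKM was 1489, 1043 and 1006, against 590, 1300 and 957 in the bin. Replicate 1 was thus highest before the bin and lowest in it, though levels before the bin differed little. Joined, the level of both stretches had an SD of 0.09, below the 0.30 of the bin alone. The 60 rows before the bin on chromosome 11 had levels of 2.45, 2.43 and 2.43, with replicate 1 highest there too. Joined, the level of both stretches on chromosome 11 had an SD of 0.12, below the 0.28 of the bin alone. The rows before the bins on chromosomes 2 and 11 had SDs of 0.05 and 0.01, so joining them lowers the SD in any case. Whether values crossed the edges of these bins cannot be told from such SDs and was not tested.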

How the data were processed

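RNA was measured in 3 libraries of group E24, 1 per animal. The deposited values are RPKM, made by the authors with TopHat2 and Cufflinks on mm9, per the submitters' processing notes. These sources state no version, annotation or filter. A further 9 value columns match no listed sample and were not used. Read depth is unknown, so no counting interval is given. The p-values measure only the spread between these 3 libraries. That spread mixes differences between animals with the displacement of values along the table.

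Rows were binned by locus start in 2 Mb steps. Each row was taken as log2(RPKM + 1), and bin means minus the mean of all remaining autosomal rows of the library were tested by limma (version 3.58.1, run in R 4.3.3) with an intercept alone and moderated variance, two-sided and called at a Benjamini-Hochberg adjusted p below 0.05, over the 708 bins with 10 or more rows. Differences within chromosomes and from neighbouring bins were tested likewise. Single differences had an exact sign-flip permutation test. Promoter windows came from RefSeq (GRCm38.p6), matched by symbol; no coordinates were converted. Of the symbols in gene-dense bins, 99.2% matched RefSeq and 99.8% of these lay on the same chromosome.

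Bins named are the 8 highest, the 8 lowest, the 3 with the most rows and the 3 with the largest SD between libraries, and genes named in them are members of the listed functional sets, except Plekhj1, Ifna4, Klk1 and the families of name arrays, which were picked after values were seen; some members are not reported here. The bins, the lists and the tests were chosen with earlier results of these data known. Alternatives covered the pseudocount, row filters, bin edges, phase, width and threshold, scaling, medians, the excluded families and each library left out.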

Additional observations from a re-analysis of the deposited data

How the results depend on the processing

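No paired analysis was possible because the labels give no second group to pair by replicate number; gene-dense and other rows were differenced within each library. Leaving out each library in turn gave a level difference of 0.32 to 0.36, a difference in the share of rows at 1 RPKM or more of 4.41 to 4.70 points and a share of summed RPKM of 32.4% to 33.98%. The same step gave 41 to 43 of the 98 gene-dense bins higher and 12 to 15 lower, and 14 chromosomes higher and 1 lower. Against their neighbours, 25 to 36 of 80 bins were higher and 7 to 12 lower. Gene-dense rows stayed above the others in level and share under each alternative run.

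The level difference of 0.35 was 0.50 with a pseudocount of 0.1, 0.44 with 5 rows left out at each bin edge, 0.30 with bins starting 1 Mb later, 0.25 at 50 or more rows, 0.30 in 1 Mb bins of 20 or more rows, 0.57 for medians, 0.47 with the excluded families kept in and 0.40 without name arrays. The difference in share of 4.56 points was 3.54 without rows at 0 in every library, 1.91 without rows under a mean of 1 RPKM, 8.09 with the edges left out, 4.15 with the later start, 2.59 at 50 or more rows, 3.71 in 1 Mb bins, 8.19 with the excluded families and 5.87 without name arrays. The share of summed RPKM was 70.2% with the edges left out, which removes most rows of the other bins, 30.1% with the later start, 48.2% at 30 or more rows, 20.7% at 50 or more and 39.5% in 1 Mb bins.

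Of 96 gene-dense bins fitted without rows under a mean of 1 RPKM, limma called 28 higher and 4 lower. It called 30 and 11 of 53 at 50 or more rows, 93 and 38 of 222 in 1 Mb bins, and 81 and 32 of 169 at 30 or more rows. The share of all fitted bins called is given for the main setting only. Whether the counts under alternatives exceed such a background is therefore not shown. At 50 or more rows, 8 chromosomes were higher and 4 lower of 15. Lower chromosomes numbered 3 with the pseudocount of 0.1, the later start or 1 Mb bins, 2 with the edges left out, at 30 or more rows or for medians, and 0 without rows at 0, without rows under 1 RPKM or with the excluded families, where limma gave 0 at an unadjusted p under 0.05 too. Against neighbours, 16 were higher and 5 lower of 66 without rows under 1 RPKM, 11 and 3 of 14 with the edges left out and 22 higher of 49 at 50 or more rows, and the lower count was 16 at 30 or more rows and 15 in 1 Mb bins or with the excluded families. The offset of the bin on chromosome 14 at 26 to 28 Mb was 0.11 without rows at 0, and that on chromosome 19 at 4 to 6 Mb was −0.053 without rows under 1 RPKM. Where a filter leaves fewer rows or bins, fewer calls can be made; the cause of the other shifts was not tested. Leaving out name arrays was chosen after seeing the data. Unknown read depth limits what can be said of rows near 0.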
